A study of Bos taurus with 8 samples.

Results

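The genes described here encode the respiratory chain of mitochondria, the set of protein complexes that passes electrons from nutrients to oxygen and makes ATP. They were chosen by gene name: the 13 protein genes of the mitochondrial genome, and 88 nuclear names of complex I (NDUF), complex II (SDH), complex III (UQCR and CYC1), complex IV (COX4 to COX8 families) and ATP synthase (ATP5). These 101 genes are a small part of the 33132 in the count table. Total RNA was sequenced from rumen tissue, the fermentation chamber of the cattle stomach, of 4 adult steers (castrated males) and 4 newborn male calves, all angus crosses, with 1 library per animal. The series asks what accompanies the growth and maturation of the rumen after birth. Steers and calves differ in age and in castration together, the labels give no diet, exact age or batch, and no genotype or treatment was varied.

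Complex I takes electrons from NADH and complex II takes them from succinate. Both pass them through ubiquinone to complex III, then by cytochrome c to complex IV, which reduces oxygen. Complexes I, III and IV pump protons, and complex V, ATP synthase, uses the proton gradient to make ATP. Complex II is coded by nuclear genes alone, while the other complexes mix subunits from both genomes. The rumen epithelium is known for oxidising butyrate and other fermentation acids, a use that depends on this chain.

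Library totals were 42322022 to 54449684 counts in steers and 45779990 to 49628428 in calves. Levels are given as CPM, counts scaled to a common TMM-adjusted library size. A gene is called changed where edgeR's quasi-likelihood test gave a Benjamini-Hochberg adjusted p under 0.05 over all 16326 genes tested, and log2 changes are steer minus calf with their standard error. Of all genes tested, 7.7% were called higher in steers and 9.16% lower. The libraries were not alike for short genes. For each library, log2 CPM was taken as the deviation from each gene's mean over the 8 libraries. The slope of these deviations on log2 gene span was -0.0825 in steer 1 and 0.0832 in calf 2, against -0.0162 to 0.0244 in the other libraries. Smooth muscle markers had summed levels of 12971 to 127360 CPM in steers and 7854 to 22004 CPM in calves. Basal keratinocyte markers of the rumen epithelium summed to 8489 to 16231 CPM in steers and 11786 to 17201 CPM in calves, with 2 of 9 tested called higher, 1 lower and DSG3 at 0.

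The 13 mitochondrially encoded genes took a larger part of the RNA in steers. Their share of all counts was 3.92%, 4.66%, 5.11% and 7.69% in steers 1 to 4, against 2.49%, 2.56%, 1.81% and 2.28% in calves 1 to 4. Every steer lay above every calf. In bulk tissue, more cells rich in mitochondria and more mitochondrial RNA per cell cannot be told apart. The 88 nuclear genes took 1.57% to 2.07% of counts in steers and 0.858% to 1.48% in calves, without overlap in these unscaled shares. On the TMM-adjusted scale their sums did overlap, at 14711 to 24420 CPM in steers and 6774 to 15382 CPM in calves. The mitochondrial sums stayed apart on that scale, at 45158 to 73368 CPM in steers and 17394 to 27048 CPM in calves. Counts of the mitochondrial genes over those of the nuclear genes came to 1.89 to 4.90 in steers and 1.39 to 2.98 in calves, and here the groups overlapped.

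**Figure D1:**
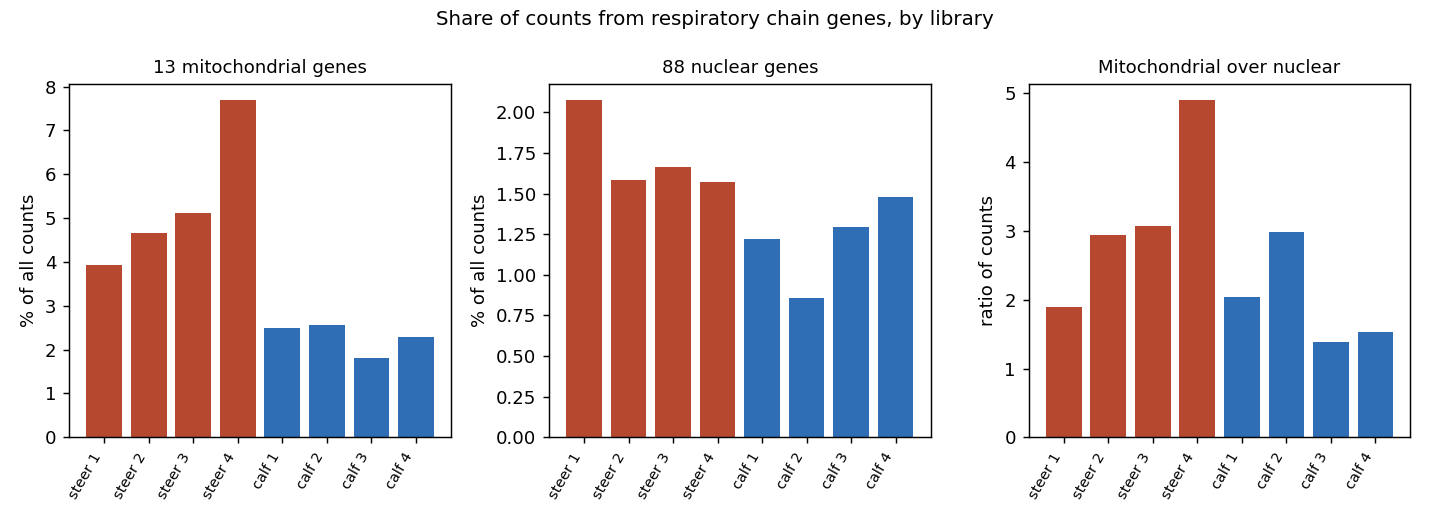
Share of all counts (%) from the 13 mitochondrial genes (left) and the 88 nuclear genes (middle), and the ratio of the 2 (right), with 1 bar per library, steers in red and calves in blue. The mitochondrial share is highest in steer 4 at 7.69%, the nuclear share highest in steer 1 at 2.07% and lowest in calf 2 at 0.858%.

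Of the 13 mitochondrial genes 8 were called higher in steers (61.5%, beside 7.7% of all genes) and none lower. The median log2 change was 1.05, against 0.04 over all genes tested. At an unadjusted p under 0.05 there were 11 higher and 0 lower. Without 1 library the count was 7 (steer 1), 4 (steer 2), 4 (steer 3), 3 (steer 4), 2 (calf 1), 7 (calf 2), 1 (calf 3) or 2 (calf 4). Over all genes, 1257 of 16326 were called higher with all libraries. This was 705 of 16667 without calf 1 and 1473 of 16644 without steer 4. Smooth muscle markers differed as well, with 6 of 12 called higher and 1, ACTA2, called lower. With their mean as a covariate 5 mitochondrial genes were called (ND2, COX2 and CYTB were not), and the median log2 change was 1.09.

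The complex IV genes of the mitochondrial genome, COX1 to COX3, code for the catalytic core of cytochrome c oxidase. All 3 were called (100%, beside 7.7% of all genes called higher). COX1, which holds the heme centre that reduces oxygen (mitochondrial genome, 5687 to 7231, plus strand), had 19254, 23284, 22527 and 37984 CPM in steers and 9516, 6539, 7168 and 6950 CPM in calves. The steer values were all at least 2-fold above the highest calf, and steer 4 stood highest. Its log2 change was 1.77 ± 0.35 (SE, adjusted p = 0.0086). COX3, a further core subunit (8970 to 9750), had 7442, 8712, 6797 and 10629 CPM in steers and 4109, 3187, 2233 and 3834 CPM in calves. Its groups did not overlap either, and its log2 change was 1.33 ± 0.32 (adjusted p = 0.0193). COX2, which receives electrons from cytochrome c (7374 to 8057), had 3784, 3268, 2408 and 4416 CPM in steers and 2060, 1304, 1290 and 1969 CPM in calves, with a log2 change of 1.07 ± 0.31 (adjusted p = 0.041). COX1 kept its call without any 1 library. The call of COX3 ended without calf 3, and that of COX2 ended without any 1 library other than steer 3.

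CYTB, the cytochrome b of complex III and its single mitochondrial subunit (14514 to 15653), had 4715, 5619, 4069 and 6008 CPM in steers and 3045, 2121, 1836 and 2612 CPM in calves. The groups did not overlap, and the log2 change was 1.09 ± 0.29 (adjusted p = 0.0304). The call ended without steer 2, steer 4 or any 1 calf.

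The 7 complex I genes of the mitochondrial genome were less uniform, with 3 called (42.9%, beside 7.7% of all genes called higher). ND4, a proton-pumping membrane subunit (10529 to 11906), had 1888, 2708, 2318 and 3530 CPM in steers and 1398, 1365, 1002 and 1262 CPM in calves (log2 change 1.05 ± 0.28, adjusted p = 0.0303). ND2, of the same kind (4266 to 5307), had 669, 853, 933 and 1171 CPM in steers and 439, 588, 321 and 495 CPM in calves (0.98 ± 0.28, adjusted p = 0.0369). Both were higher in every steer than in every calf. The small membrane subunit ND4L (10239 to 10535) had 23.5, 34.5, 74.0 and 81.9 CPM in steers and 9.71, 28.0, 13.005 and 9.16 CPM in calves. Steer 1 lay below calf 2, and the log2 change was 1.84 ± 0.49 (adjusted p = 0.0289). ND2 and ND4 lost their calls without steer 2, and each of the 3 lost its call without steer 3, steer 4, calf 1, calf 3 or calf 4.

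The other 4 complex I genes did not pass. ND1 averaged 1658 ± 375 CPM in steers and 1190 ± 267 in calves (SD, n = 4 each, adjusted p = 0.288). ND3 averaged 2632 ± 781 and ND5 355 ± 94.2 CPM in steers, against 1456 ± 608 and 197 ± 100.1 CPM in calves (adjusted p = 0.156 and 0.139). ND6 is the only one of the 13 on the minus strand (13913 to 14440), so its RNA comes from the other strand of the circle. It had 279, 508, 213 and 250 CPM in steers and 487, 341, 120 and 479 CPM in calves, and was the only mitochondrial gene with a log2 change below 0 (-0.19 ± 0.44, adjusted p = 0.811; 0.0049 without calf 1). Counting ignored strand, so ND6 counts can hold RNA of the opposite strand.

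Of the 2 mitochondrial genes of ATP synthase, both coding for membrane subunits, ATP8 was called (50%, beside 7.7% of all genes called higher). ATP8 (8129 to 8329) had 10.1, 14.6, 18.2 and 27.0 CPM in steers and 5.10, 9.44, 7.39 and 4.41 CPM in calves (log2 change 1.41 ± 0.36, adjusted p = 0.0239). ATP6 (8290 to 8970) averaged 3627 ± 732 CPM in steers and 2184 ± 458 in calves, and although its groups did not overlap it was not called (0.73 ± 0.29, adjusted p = 0.115). ATP8 lost its call without steer 3, calf 1, calf 3 or calf 4. ATP8 shares 19.9% of its span with ATP6, and reads lying in both genes were dropped by the authors' counting, so its level is too low by an unknown factor. The same holds for ND4L, which overlaps ND4.

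**Figure D2:**
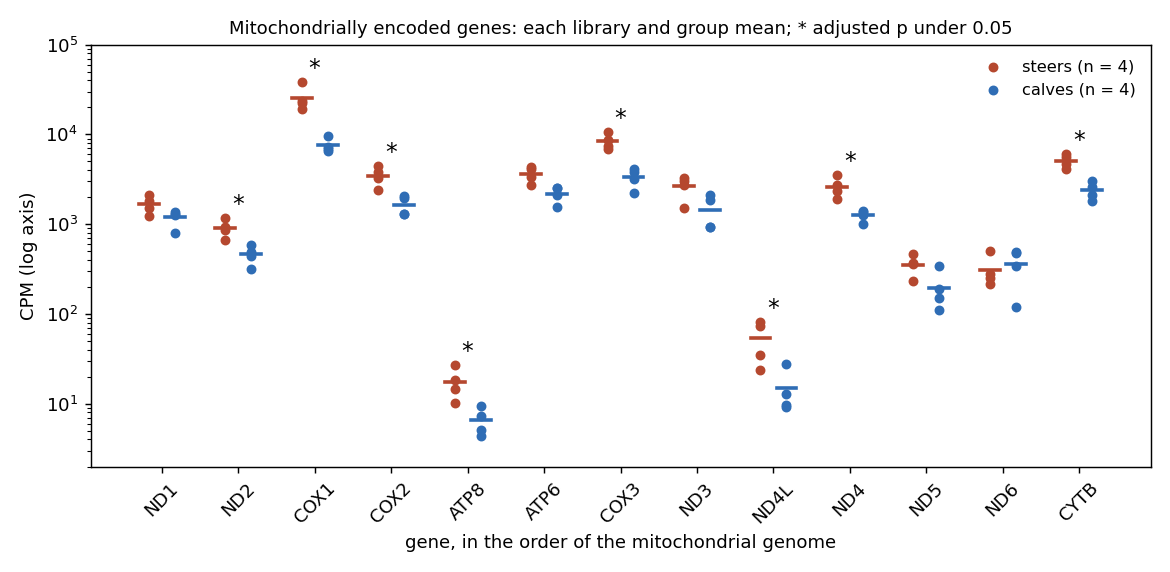
CPM (log axis) of the 13 mitochondrially encoded genes in genome order, with 1 point per library, a bar at each group's mean, steers in red and calves in blue, and an asterisk where the adjusted p is under 0.05. COX1 is the highest gene in both groups, at 19254 to 37984 CPM in steers and 6539 to 9516 in calves, and ND6 is the single gene whose mean is lower in steers.

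Per kilobase of span, on which levels of these intron-free genes can be set side by side, COX1 stood first with a mean of 16675 CPM per kilobase in steers and 4882 in calves. COX3 came next with 10749 in steers and 4277 in calves, then ND3 with 7606 in steers and 4209 in calves. Genes of the far end of the order were ND5, at 195 CPM per kilobase in steers and 108 in calves, and the read-losing ND4L and ATP8.

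The makeup of the mitochondrial counts differed too. COX1 gave 41.7%, 42.4%, 49.9% and 51.8% of the mitochondrial counts in steers 1 to 4, and 35.2%, 32.4%, 41.2% and 29.4% in calves 1 to 4. ND1 gave 2.47% to 3.80% in steers and 4.58% to 6.43% in calves, and ATP6 gave 5.85% to 7.52% in steers and 8.97% to 10.6% in calves. CYTB had 8.19% to 10.2% in steers and 10.5% to 11.3% in calves, and ND4 had 4.09% to 5.13% in steers and 5.17% to 6.76% in calves. The groups did not overlap for any of these shares, but the shares of a library sum to a whole, so a rise of COX1 lowers the others by construction. COX3 shares, at 14.5% to 16.1% in steers and 12.8% to 16.2% in calves, overlapped. These shares were singled out after their values were seen and were not tested.

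The nuclear genes that were called were likewise higher in steers. Of the 88, 84 passed the filter on low counts. Among these 14 were called higher (16.7%, beside 7.7% of all genes tested) and none lower. At an unadjusted p under 0.05 there were 37 higher and 1 lower, COX4I2, which DESeq2 called lower. The fitted change was above 0 for 79 of 84, where it was above 0 for 52.4% of all genes, and the median log2 change was 0.58. In 34 genes (40.5%) every steer lay above every calf, as it did for 10.5% of all genes, and 20 of these 34 did not pass the test. Leaving out 1 library gave 7 called genes (steer 1), 7 (steer 3), 13 (steer 4), 4 (calf 1), 7 (calf 2) or 8 (calf 4). Without steer 2, 10 of the 14 kept their calls, and without calf 3, 11 did. The number called higher over all genes moved too, from 1257 of 16326 with all libraries. Without calf 1 it was 705 of 16667, and the 4 of 85 nuclear genes were near that share. Without steer 4 it was 1473 of 16644, beside 13 of 84 nuclear genes.

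A pair of libraries stood apart for these genes. Steer 1 was the highest steer for 69 of 84 nuclear genes (82.1%, against 22.6% of all genes), and calf 2 was the lowest calf for 75 (89.3%, against 31.6%). These are the 2 libraries with the outlying span slopes. The median span was 6.70 kb for the nuclear genes, 0.781 kb for the mitochondrial genes and 23.0 kb over all genes tested. Whether span has a part in this order of libraries was not tested. With both left out, 4 nuclear genes stayed called (ATP5PF, COX7C, UQCRB and SDHD), 62 of 84 changes were above 0 and the median was 0.26, against 0.05 for all genes. With the span slope as a covariate 19 were called and the median was 0.37. With the smooth muscle markers as a covariate 11 were called and the median was 0.55, and ATP5PF, ATP5S, COX7B, COX7C, NDUFB2 and UQCRFS1 were among those that did not pass. The mitochondrial genes did not share this pattern. Steer 1 was the highest steer for none of the 13 and calf 2 the lowest calf for 2. With both left out 6 were called with a median of 1.23. The mitochondrial genes had an order of their own. Steer 4 was the highest steer for 10 of the 13 (76.9%, against 33.4% of all genes), and calf 3 was the lowest calf for 9 (69.2%, against 22.0%).

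**Figure D3:**
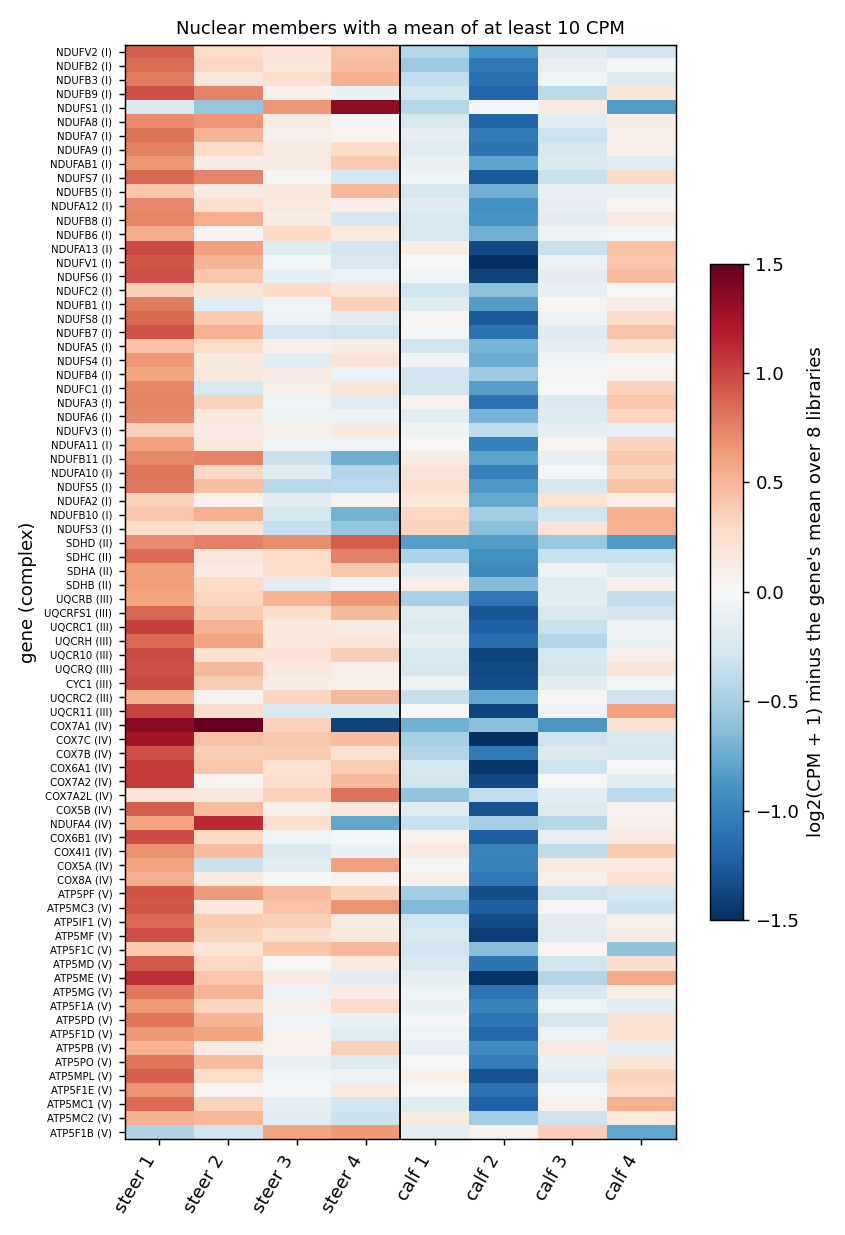
The 78 nuclear genes shown, each tested and with a mean of at least 10 CPM, as log2(CPM + 1) minus the gene's mean over the 8 libraries, sorted by complex and then by log2 change, with steers left of the line and calves right of it. Calf 2 is the lowest calf (blue) in most rows and steer 1 the highest steer (red), while SDHD is higher in all 4 steers by about the same amount.

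Complex II, coded by 4 nuclear genes and shared with the tricarboxylic acid cycle, had 2 genes called (50%, beside 7.7% of all genes called higher). SDHD, a membrane anchor with the heme and ubiquinone site (chromosome 15, 22397377 to 22409059), had 167, 173, 167 and 193 CPM in steers and 57.1, 56.7, 68.8 and 56.3 CPM in calves. Each group was tight and the gap between them wide, with a log2 change of 1.55 ± 0.17 (adjusted p = 0.000493). It was the lowest adjusted p among the 101 genes. SDHC, the other anchor (chromosome 3, 8177616 to 8208058), had 118, 73.0, 78.7 and 110.4 CPM in steers and 46.7, 34.2, 51.6 and 51.2 CPM in calves (1.05 ± 0.23, adjusted p = 0.013). The catalytic SDHA averaged 547 ± 83.0 CPM in steers and 343 ± 83.8 in calves (0.67 ± 0.25, adjusted p = 0.0997). SDHB, the iron-sulfur subunit, had a log2 change of 0.34 ± 0.26 (adjusted p = 0.413). The 2 anchors kept their calls without any 1 library.

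In complex III, 2 of 9 nuclear genes were called (22.2%, beside 7.7% of all genes called higher). All 9 changes were above 0, beside 52.4% over all genes tested. UQCRB, a ubiquinone-binding accessory subunit (chromosome 14, 67986590 to 67991358), had 112, 93.3, 107 and 117 CPM in steers and 52.9, 34.6, 66.4 and 57.6 CPM in calves. No steer overlapped a calf, and the log2 change was 1.02 ± 0.22 (adjusted p = 0.0129). UQCRFS1, the Rieske iron-sulfur protein (chromosome 18, 997260 to 1002042), had 323, 232, 211 and 247 CPM in steers and 156, 72.2, 150.5 and 144 CPM in calves (0.95 ± 0.28, adjusted p = 0.0416), a call that ended without any 1 library. UQCRC1, a core protein that drew the most counts in this complex, had 1088, 766, 596 and 587 CPM in steers and 461, 229, 424 and 500.1 CPM in calves, and was not called (0.91 ± 0.32, adjusted p = 0.0786). The cytochrome c1 gene CYC1 had a log2 change of 0.75 ± 0.34 (adjusted p = 0.163).

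Complex I is the largest complex, and 3 of its 36 tested nuclear genes were called, NDUFV2 and NDUFB2 among them. This share, 8.33%, is near the 7.7% of all genes called higher. NDUFV2, an iron-sulfur subunit of the NADH-oxidising arm (chromosome 24, 41415091 to 41433991), had 219, 142, 135 and 160 CPM in steers and 86.8, 62.5, 103 and 94.8 CPM in calves (0.92 ± 0.23, adjusted p = 0.0244). NDUFB2, an accessory membrane subunit (chromosome 4, 104013515 to 104019158), had 69.8, 48.2, 43.6 and 53.9 CPM in steers and 26.3, 17.9, 35.4 and 37.9 CPM in calves (0.88 ± 0.27, adjusted p = 0.0494). The groups did not overlap in either. NDUFB2 lost its call without any 1 library other than calf 4, and NDUFV2 without calf 1, calf 2 or calf 4.

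Among nuclear genes that were not called, NDUFV1, which binds NADH and drew the most counts in this complex, had 657, 493, 337 and 292 CPM in steers and 347, 121, 326 and 460 CPM in calves (0.50 ± 0.41, adjusted p = 0.441), and its change was -0.0143 without calf 2 and steer 1. The core subunit NDUFS3 had the lowest log2 change of the complex (-0.24 ± 0.29, adjusted p = 0.633), with 129, 123, 83.4 and 71.0 CPM in steers and 135, 68.8, 122 and 153 CPM in calves. Across the complex, 35 of 36 changes were above 0 with a median of 0.50, beside 52.4% and 0.04 over all genes tested. NDUFS1, the largest core subunit, ran against the common order of libraries, with 12.1, 9.35, 23.3 and 38.3 CPM in steers and 10.6, 14.4, 15.9 and 7.68 CPM in calves, and 19.5% of its span is shared with another gene. NDUFA1 had no count in any library, since its whole span lies in that of other genes and such reads were dropped.

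**Figure D4:**
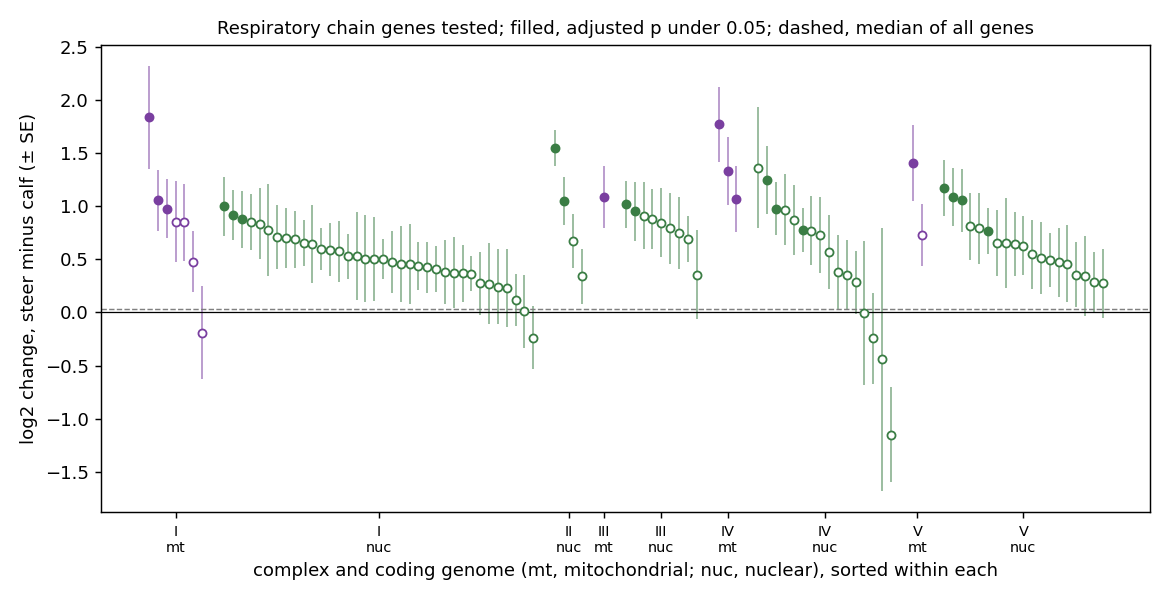
Log2 change, steer minus calf, with its standard error for the 97 tested genes, by complex and coding genome (purple, mitochondrial; green, nuclear), with filled points where the adjusted p is under 0.05 and a dashed line at the median of all genes. Changes below 0 are few: ND6, NDUFS3 and 4 nuclear names counted with complex IV.

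Of 16 tested nuclear genes of complex IV, 3 were called (18.75%, beside 7.7% of all genes called higher), all of them accessory proteins. COX7C, a small accessory subunit (chromosome 7, 86288746 to 86290953), had 394, 225, 220 and 228 CPM in steers and 117, 58.6, 133 and 140 CPM in calves (1.25 ± 0.32, adjusted p = 0.0256). COX7B (chromosome X, 74502510 to 74507315) had 249, 165, 168 and 150 CPM in steers and 94.0, 60.8, 109.8 and 106.6 CPM in calves (0.98 ± 0.25, adjusted p = 0.0266). Both lost their calls without steer 1 or calf 1, and no steer overlapped a calf in either. COX7A2L, known as a factor that joins complexes III and IV into supercomplexes (chromosome 11, 24756889 to 24769249), had 84.9, 83.9, 96.0 and 133 CPM in steers and 49.5, 58.0, 67.0 and 57.1 CPM in calves (0.78 ± 0.21, adjusted p = 0.0289). Its call ended without steer 3, calf 1, calf 2 or calf 4. COX4I1, the gene of this complex with the most counts, had 1395, 1198, 746 and 808 CPM in steers and 953, 433, 662 and 1134 CPM in calves (0.38 ± 0.35, adjusted p = 0.504).

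Several complex IV subunits exist as a common form and a form of particular tissues. COX7A1 is the form of heart and muscle, and had 69.4, 88.0, 34.2 and 9.56 CPM in steers and 15.8, 16.9, 14.04 and 31.4 CPM in calves. Steers 1 and 2 were high and steer 4 was below every calf, so the groups overlapped (1.36 ± 0.57, adjusted p = 0.131). The summed smooth muscle markers took the same order among steers, at 66206, 127360, 60827 and 12971 CPM, against 22004, 16618, 7854 and 16878 CPM in calves. With the mean of those markers as a covariate the change of COX7A1 was -0.35, and without steer 4 it was 1.71 and called (adjusted p = 0.0136). NDUFA4, named for complex I but now placed in complex IV, followed the same order of steers with 112.5, 162, 88.2 and 42.9 CPM, against 58.6, 52.3, 55.2 and 78.7 CPM in calves (0.73 ± 0.35, adjusted p = 0.19). Its change was -0.20 with the same covariate and 0.99, called, without steer 4. The striated muscle forms COX6A2 and COX8B gave no level: COX6A2 had 6 counts in steer 3, 2 in calf 4 and none elsewhere, and the span of COX8B is wholly shared. Striated muscle markers summed to 20.4 to 63.4 CPM in steers and 58.1 to 142 CPM in calves, with MYH1 and MYH4 at 0. Of 12 tested, 1 was called higher and 4 lower, beside 7.7% and 9.16% of all genes.

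The common partner of COX7A1, COX7A2, averaged 177 ± 57.8 CPM in steers and 96.5 ± 33.4 in calves (0.87 ± 0.33, adjusted p = 0.0986). Counts of COX7A1 came to 26.9%, 69.4%, 23.3% and 5.47% of those of COX7A2 in steers and 15.4%, 35.0%, 11.3% and 28.4% in calves, without a separation of the groups. COX4I2, the form of lung and of cells adapted to low oxygen, had 3.62, 2.34, 2.16 and 3.07 CPM in steers and 3.82, 7.29, 2.69 and 11.1 CPM in calves. It had the lowest log2 change of the 97 tested genes (-1.15 ± 0.45, adjusted p = 0.108), and it passed with DESeq2 alone. NDUFA4L2, a paralog of NDUFA4 known to be induced by low oxygen, shares 69.6% of its span and had 1.78 to 6.28 CPM in steers and 0.699 to 8.62 CPM in calves (-0.01 ± 0.68, adjusted p = 0.996). COX6A1, COX6B1 and COX8A averaged 533 ± 145, 272 ± 101 and 313 ± 58.4 CPM in steers, against 272 ± 98.4, 184 ± 65.2 and 257 ± 86.4 CPM in calves (adjusted p = 0.0754, 0.303 and 0.563). The sperm form COX6B2 stayed at 0.557 to 1.30 CPM in steers and 0.753 to 1.56 CPM in calves. COX7ALP1, annotated as a pseudogene by RefSeq, had 6 to 42 counts in steers and 2 to 20 in calves and was not tested.

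**Figure D5:**
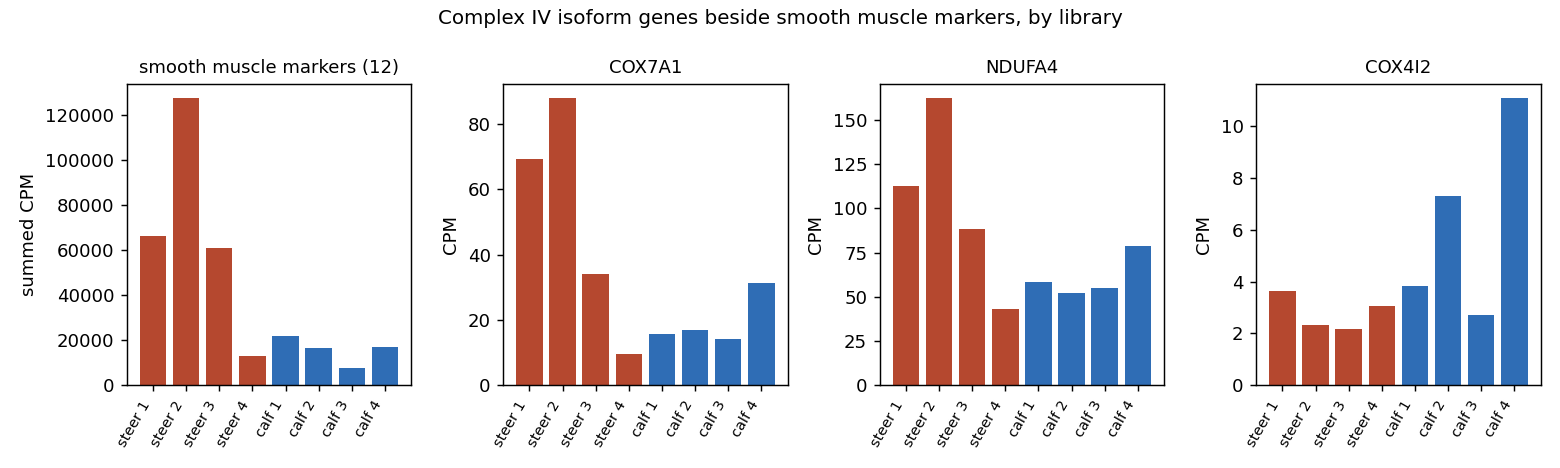
Summed CPM of the 12 smooth muscle markers and CPM of COX7A1, NDUFA4 and COX4I2, with 1 bar per library, steers in red and calves in blue. Among steers, COX7A1 and NDUFA4 are highest in steer 2 (88.0 and 162 CPM) and lowest in steer 4 (9.56 and 42.9 CPM), as the smooth muscle markers are, while COX4I2 is highest in calf 4 (11.1 CPM).

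ATP synthase had 4 of 19 nuclear genes called (21.1%, beside 7.7% of all genes called higher). All 19 changes were above 0, beside 52.4% over all genes tested. ATP5PF, coupling factor 6 of the stalk (chromosome 1, 10690976 to 10698965), had 175, 142, 126 and 116 CPM in steers and 62.9, 35.5, 73.1 and 76.0 CPM in calves. The groups did not overlap and the log2 change was 1.17 ± 0.27 (adjusted p = 0.0151), a call kept without any 1 library. ATP5MC3, which codes for a c-ring subunit (chromosome 2, 21688206 to 21691318), had 343, 201, 241 and 286 CPM in steers and 113, 76.4, 181 and 144 CPM in calves (1.06 ± 0.29, adjusted p = 0.0357). ATP5F1C, the central stalk subunit gamma (chromosome 13, 16093396 to 16109851), had 23.2, 20.2, 23.6 and 25.0 CPM in steers and 14.2, 10.9, 17.8 and 11.1 CPM in calves (0.77 ± 0.21, adjusted p = 0.0357), with 43.1% of its span shared. ATP5S, renamed DMAC2L in RefSeq (chromosome 10, 43219972 to 43232045), had 7.50, 9.13, 10.0 and 5.42 CPM in steers and 3.66, 3.98, 4.27 and 3.12 CPM in calves (1.09 ± 0.27, adjusted p = 0.0229). Leaving out steer 3, calf 1 or calf 4 ended the calls of these last 3 genes. That of ATP5S also ended without steer 2, and those of ATP5MC3 and ATP5F1C without steer 1, steer 4 or calf 2.

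The c-ring is coded by 3 genes whose mature proteins are the same, and ATP5MC3 was the only one called. ATP5MC2 averaged 486 ± 145 CPM in steers and 398 ± 90.1 in calves (0.29 ± 0.28, adjusted p = 0.529), and ATP5MC1 averaged 174 ± 64.5 CPM in steers and 137 ± 60.9 in calves (0.34 ± 0.38, adjusted p = 0.583). Counts of ATP5MC3 came to 55.6%, 33.2%, 63.5% and 83.5% of those of ATP5MC2 in steers and to 24.0%, 25.7%, 52.6% and 30.3% in calves, with calf 3 above steer 2. The catalytic subunit ATP5F1A, with the most counts in this complex, had 1323, 1056, 894 and 1033 CPM in steers and 794, 421, 812 and 761 CPM in calves, a change that did not pass (0.63 ± 0.28, adjusted p = 0.154) although the groups were apart. Its partner ATP5F1B, with 68.7% of its span shared, had a change of 0.27 ± 0.33 (adjusted p = 0.621). ATP5IF1, the inhibitor that stops ATP synthase from running in reverse, averaged 285 ± 63.2 CPM in steers and 163 ± 58.4 in calves (0.81 ± 0.31, adjusted p = 0.105).

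The chain is fed by other enzymes and carriers. Of 18 genes for electron carriers, ubiquinone synthesis and entry of electrons, 7 were called higher (38.9%, beside 7.7% of all genes) and 1 lower, with a median log2 change of 0.70. ETFA, part of the flavoprotein that collects electrons from fatty acid oxidation, averaged 181 ± 50.4 CPM in steers and 57.5 ± 13.99 in calves (1.66 ± 0.27, adjusted p = 0.00348). ETFDH, which hands these electrons to ubiquinone, had 148, 108, 146 and 379 CPM in steers and 46.8, 46.1, 99.7 and 66.5 CPM in calves (1.59 ± 0.43, adjusted p = 0.0302), a call that ended without calf 1, calf 2 or calf 4. Cytochrome c itself, CYCS, averaged 129.9 ± 43.7 CPM in steers and 47.7 ± 16.7 in calves (1.45 ± 0.33, adjusted p = 0.0157), a call that ended without calf 1. GPD2, which brings in electrons from glycerol 3-phosphate, was lower, at 4.91 ± 1.75 CPM in steers and 13.9 ± 3.65 in calves (-1.50 ± 0.31, adjusted p = 0.00982), a call lost with the smooth muscle covariate.

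Assembly factors of complexes I and IV were called at shares near or below those of all genes. For complex I, 2 of 21 (9.52%, beside 7.7% of all genes) were called higher and 1 lower. NUBPL, which delivers iron-sulfur clusters, had a change of 1.10 ± 0.24 (adjusted p = 0.0123), and NDUFAF7, an assembly methyltransferase, one of 1.34 ± 0.33 (adjusted p = 0.0226; lost without steer 3, calf 2 or calf 4). ACAD9, an acyl-CoA dehydrogenase relative needed for complex I, went the other way, with 31.3, 28.1, 26.2 and 22.9 CPM in steers and 79.0, 71.4, 68.1 and 109 CPM in calves (-1.60 ± 0.21, adjusted p = 0.00122). For complexes II and III, 2 of 10 were called higher (20%, above the 7.7% of all genes). They were LYRM7 (1.01 ± 0.29), a chaperone of the Rieske protein, and UQCC1 (0.63 ± 0.18), which acts on cytochrome b. For complex IV the 1 of 21 (4.76%) was CMC1 (1.61 ± 0.30, adjusted p = 0.0061). For ATP synthase the 2 of 5 (40%, also above 7.7%) were TMEM70 (1.23 ± 0.23, adjusted p = 0.0065) and ATPAF1 (0.59 ± 0.17). LYRM7, UQCC1 and ATPAF1 lost their calls without most single libraries.

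Nuclear genes also supply the proteins that copy and transcribe mitochondrial DNA and keep its RNA. Of 23 genes for copying and transcription of mitochondrial DNA, 4 were called higher (17.4%) and none lower, with a median of 0.38. RRM2B, a ribonucleotide reductase subunit, the termination factor MTERF1 and the elongation factor TEFM had changes of 0.98 ± 0.24, 0.97 ± 0.23 and 0.87 ± 0.25 (adjusted p = 0.0203, 0.0168 and 0.0377). RRM2B lost its call without steer 3, calf 1 or calf 3, and TEFM without any 1 library other than steer 2 and calf 2. TFAM, which packs and transcribes mitochondrial DNA, had 25.7, 23.9, 29.7 and 37.2 CPM in steers and 18.5, 21.2, 22.0 and 20.3 CPM in calves and was not called (0.51 ± 0.19, adjusted p = 0.105). The mitochondrial RNA polymerase POLRMT averaged 23.5 ± 5.55 CPM in steers and 28.8 ± 6.57 in calves (adjusted p = 0.441). Of 15 tested genes for stability of mitochondrial RNA 1 was called (6.67%, below the 7.7% of all genes), the RNA granule protein GRSF1 (0.80 ± 0.21, adjusted p = 0.0293), which lost its call without steer 3, calf 1, calf 3 or calf 4.

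Among 14 tested nuclear regulators of mitochondrial genes, 1 was called higher and 1 lower, 7.14% each, below the 7.7% and 9.16% of all genes. The nuclear receptor ESRRA had 179, 151, 179 and 265 CPM in steers and 80.2, 77.7, 105 and 94.8 CPM in calves (1.11 ± 0.23, adjusted p = 0.00929), a call kept without any 1 library. PPARGC1A, a coactivator of ESRRA, had 7.55, 24.8, 13.1 and 5.05 CPM in steers and 3.68, 6.52, 3.24 and 3.22 CPM in calves. Its change was just outside the threshold (1.60 ± 0.49, adjusted p = 0.0505). It passed under 9 of 23 alternatives, those without steer 4, without calf 2 and with DESeq2 among them, and did not under 14. The acetyltransferase KAT2A was lower (-0.69 ± 0.20, adjusted p = 0.0433), a call that ended without any 1 library other than steer 1. NRF1 and GABPA, DNA-binding regulators of many respiratory genes in mammals, had changes of -0.31 ± 0.22 and 0.66 ± 0.27 (adjusted p = 0.364 and 0.122). Of 27 genes for import, chaperones and membranes of mitochondria, 3 were called higher (11.1%) and none lower, with a median of 0.47: the chaperonin HSPE1 (1.23 ± 0.25), the cristae protein CHCHD3 (0.93 ± 0.17) and the outer membrane channel VDAC2 (0.87 ± 0.19, lost without calf 1).

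Of fibroblast, endothelial and enteric neuron and glia markers none was called higher, and 3 of 8, 1 of 8 and 3 of 8 were called lower. Over all genes tested, 7.7% were called higher and 9.16% lower, and the 1 endothelial call is near the latter share. Fibroblast markers summed to 630 to 1451 CPM in steers and 1715 to 4929 CPM in calves. Enteric neuron and glia markers summed to 15.1 to 25.9 CPM in steers and 37.1 to 51.5 CPM in calves. Endothelial markers summed to 176 to 262 CPM in steers and 243 to 506 CPM in calves. Leukocyte markers had 4 of 7 tested called higher and 1 lower, and summed to 27.1 to 91.1 CPM in steers and 50.5 to 112 CPM in calves, with AIF1 at 0. Of adipocyte markers 2 of 8 tested were lower, and they summed to 265 to 580 CPM in steers and 115 to 830 CPM in calves. None of the 3 tested red cell markers was called (1.35 to 4.10 CPM in steers and 1.43 to 7.08 CPM in calves). The part of these cells in the changes above was not tested.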

How the data were processed

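The deposited table holds whole-number counts per gene name and library, not normalized. FeatureCounts 2.0.2 summed reads over each transcript's full span, introns included, per the file headers. Although cDNA was made with dUTP, per the labels' protocols, the command set no strand option. It counted the 2 mates of a pair singly, and left out reads in more than 1 gene or place. The submitters' processing notes also name Trimmomatic 0.39, STAR 2.7.11a and DESeq2 1.42.0. No source used here names a genome build, so positions are the table's own. Processed gene copies can draw or cost reads of respiratory genes.

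Counts of steers and calves were compared in edgeR 4.0.16 (R 4.3.3) with filterByExpr, TMM scaling and a robust quasi-likelihood F test over the whole table, and the procedure was tested on simulated data. Alternatives used DESeq2 1.42.0 and limma 3.58.1 (voom), other scalings and filters, a replicate block, 2 covariates and left-out libraries. SE is the log2 change over the square root of F, and SD is over 4 animals. Libraries of 1 group differed from each other by a chi-square of at least 112.5 per degree of freedom, so none repeats another. P-values measure the spread between animals. Members, lists and rules were chosen with earlier results of these data known. Named are all 13 mitochondrial genes, called nuclear genes except 1 result not reported here, the gene with the most counts per complex, isoform pairs, up to 3 called genes per list and direction with at least 1 CPM, and 7 genes whatever their result. Genes named outside that rule (SDHB, CYC1, NDUFS1, NDUFS3, ATP5F1B, NDUFA1 and COX7ALP1) were chosen after their values were seen. A planned promoter motif search was not made, since no sequence was used here.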

Additional observations from a re-analysis of the deposited data

Results flagged for a closer look

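Of 143 groups of 4 libraries examined for a library far from the others, 9 were flagged, where chance flags about 1 in 20. In steers these were COX7C in steer 1 (394 CPM, others 220 to 228), ETFDH in steer 4 (379 CPM, others 108 to 148) and COX6A2 in steer 3 (0.112 CPM from 6 counts, others 0). In calves, calf 2 was low for UQCRFS1 (72.2 CPM, others 144 to 156) and ATP5F1A (421 CPM, others 761 to 812) and high for PPARGC1A (6.52 CPM, others 3.22 to 3.68). Calf 3 was high for SDHD (68.8 CPM, others 56.3 to 57.1) and GPD2 (19.3 CPM, others 11.6 to 12.4), and calf 4 was high for COX7A1 (31.4 CPM, others 14.04 to 16.9).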

How the results depend on the processing

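Of the 22 called respiratory chain genes, COX1, SDHD and UQCRB kept their calls under all 23 alternatives, and none of the 22 changed sign. Against 8 mitochondrial and 14 nuclear genes called, leaving out 1 library gave 1 to 7 mitochondrial and 4 to 13 nuclear genes, with 0 to 2 in complex I, 2 in complex II, 1 to 2 in complex III, 0 to 5 in complex IV and 1 to 4 in complex V, and 1734 to 3257 of all genes. Scaling by library size only gave 5 mitochondrial genes, 4 in complex III and 2 in complex V, and it put the median log2 change of all genes at -0.07 in place of 0.04. DESeq2 called 23 nuclear genes (22 higher and COX4I2 lower), with 6 in complex I, 5 in complex III and 5 in complex IV, and limma-voom called 4 in complex III. The smooth muscle covariate left 5 mitochondrial genes, 1 in complex IV and 2 in complex V. The span slope covariate gave 5 in complex I and 4 in complex III. Without calf 2 and steer 4 there were 5 mitochondrial and 9 nuclear genes, with 1 in complex I, 1 in complex III and 2 in complex V. Without calf 2 and steer 1, chosen after seeing the data, there were 4 nuclear genes, with 0 in complex I and 1 in each of complexes II to V. With a replicate block there were 1 mitochondrial and 6 nuclear genes (0 in complex I, 1 in III, 1 in IV, 2 in V) and 1831 of all genes. Same-numbered libraries deviated together at correlations of -0.27 to 0.20. These values give no sign that the numbers pair animals, but without a reference they cannot exclude it.

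Only genes that were not called changed sign. Without calf 1, ND6 was at 0.0049 (lowest -0.52, without steer 2) and COX6B2 at 0.0286 (lowest -0.48, without steer 1). COX7A1, NDUFA4 and ATP5MC2 were at -0.35, -0.20 and -0.081 with the smooth muscle covariate. NDUFV1, COX8A and ATP5MC1 were at -0.0143, -0.0745 and -0.16 without calf 2 and steer 1, and ATP5MC1 at -0.0130 with the span slope covariate. NDUFA4L2, at -0.01, turned to 0.37 with limma-voom, 0.45 with the block, 0.34 and 0.55 with the smooth muscle and span covariates, 0.43 without calf 2 and steer 4, 0.72 without calf 2 and steer 1, and lay at -0.36 to 0.78 without single libraries, above 0 without steer 2, steer 3, calf 2 or calf 4. The cause was not tested for any of these. With 4 animals a group, a gene that misses the threshold is not shown to be alike in both groups.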
